A study of Sus scrofa with 6 samples.

Results

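Cytosolic ribosomal proteins are the protein parts of the ribosome, which translates messenger RNA in the cytoplasm. Their genes were taken by symbol from the annotation of the array: symbols that start with RPL or RPS and a digit, with RPSA, RPLP0, RPLP1 and RPLP2, and without the RPS6K kinases. This gave 64 of the 6765 genes with a named probe set, 38 of the large subunit, 25 of the small subunit and RPS19BP1, a binding partner of RPS19 that is no ribosomal protein itself. The members cover 58 of 79 ribosomal proteins on a textbook list. The others on that list were left out by the rule or not analysed here. Where a gene had several probe sets, the one with the brightest mean of the 6 arrays stood for it.

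The signals came from Affymetrix porcine expression arrays of OBGF400, a line of neuroblasts from pig olfactory bulb, and PK15, an epithelial pig kidney line that served as the somatic background. Each line had 3 arrays, and the RNA of 9 untreated cultures of a line had been combined into 3 pools. OBGF400 was grown in DMEM/F12 medium and PK15 in minimum essential medium with amphotericin B, both with 10% bovine calf serum, penicillin, streptomycin and gentamicin. Line and medium therefore cannot be told apart, and each line is 1 line rather than a set of animals. A p-value here measures the spread between RNA pools. The arrays compare equal amounts of RNA, so fewer cells and less RNA per cell cannot be told apart.

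A ribosome is built in the nucleolus from ribosomal RNA and about equal numbers of each protein. The small subunit reads the codons, and the large subunit joins the amino acids and guides the new chain through an exit tunnel. Most ribosomal protein messenger RNAs begin with a run of pyrimidines, the terminal oligopyrimidine (TOP) tract, which places their translation under the control of mTOR signalling. Dividing cells make many ribosomes, and loss of 1 copy of several of these genes causes Diamond-Blackfan anaemia in people.

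The lines differed widely in genes outside the ribosome. Of 5 measured neuron and neuroblast markers, 3 were higher and 1 was lower in OBGF400, and the log2 of their summed signal was 12.80 to 12.91 in OBGF400 and 11.75 to 11.95 in PK15. NCAM1, UCHL1 and MAP2 were the higher ones, STMN1 was lower, and SNAP25, a synaptic gene, was at the lower limit of the table in both lines, as was UCHL1 in PK15. All 5 epithelial markers were lower in OBGF400 (summed 4.73 to 4.81 against 16.13 to 16.18), with KRT18 and KRT19 at the lower limit in OBGF400. Mesenchymal markers summed to 15.43 to 15.52 in OBGF400 and 5.03 to 5.05 in PK15 with 5 of 6 higher and MMP2 and CDH11 at the lower limit in PK15, and smooth muscle markers to 16.86 to 16.93 against 9.08 to 9.87 with 4 of 4 higher. Leukocyte markers summed to 6.19 to 6.52 against 11.84 to 11.94, with 1 higher and 3 lower of 5. PTPRC, which defines leukocytes, was at the lower limit in both lines, and AIF1 in OBGF400. Astrocyte markers summed to 3.29 to 3.90 against 7.47 to 7.98, with GFAP, 1 of 2, lower. The part of these differences in those of the ribosomal protein genes was not tested.

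Ribosomal protein genes were among the brightest signals of both lines. Their median log2 signal was 14.58 in OBGF400 and 14.83 in PK15, on a scale that runs from 2.13 to 16.11. Of the 102 genes with a mean above 14, 52 were ribosomal protein genes, and 6 of the 10 brightest genes were members. RPL31, a large-subunit protein near the tunnel exit, had the highest mean of all genes. It stood at 15.93, 15.89 and 15.87 on the OBGF400 arrays and at 16.11, 16.06 and 16.05 on the PK15 arrays, and was the brightest named gene on every PK15 array. At the other end, 3 members had means under 9. RPL30 lay near 2.3 and RPS15A at the lower limit in both lines, and RPL26 had means of 4.68 and 5.96. Each of these 3 has 1 named probe set. A signal is not comparable between probe sets as a level of RNA, so these values describe the probe sets and not the abundance of the genes.

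Small differences separated the lines, and more members were lower than higher in OBGF400. Of the 64 members, 32 were lower, 8 higher and 24 not called (limma, adjusted p under 0.05). Over all genes tested, 36.8% were lower and 23.9% higher in OBGF400, together 60.8%. Among the 50 other genes above 14 on average, 21 were lower (42.0%) and 16 higher. The median difference, OBGF400 minus PK15, was -0.13 on the log2 scale for the members and 0.00 for all genes. All genes include 1047 at the lower limit in both lines, against 1 member, and such genes show little or no difference. Among genes above the 25th percentile of signal, the median was -0.24 for all genes and -0.14 for the members. The members are therefore not shown to be shifted down more than other genes with signal. The members differed little in size of log2 signal: 36 by less than 0.2, 22 by 0.2 to 0.5 and 6 by 0.5 or more. Most members lay near the top of the signal scale, and the part of this in the small sizes was not tested. A difference over 1, which is 2-fold, was found for 1 member (1.56%) and for 36.2% of all genes. Other genes above 14 differed by over 1 in 6 of 50 cases and had a median size of 0.34, against 0.16 for the members above 14. The called members had median sizes of 0.30 where lower and 0.26 where higher, against 1.19 over all called genes. The arrays of a line lay close together, with a median SD of 0.05 for the members and 0.09 for all genes. The other genes above 14 also had a median SD of 0.05, so the small spread is not particular to the members.

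**Figure D1:**
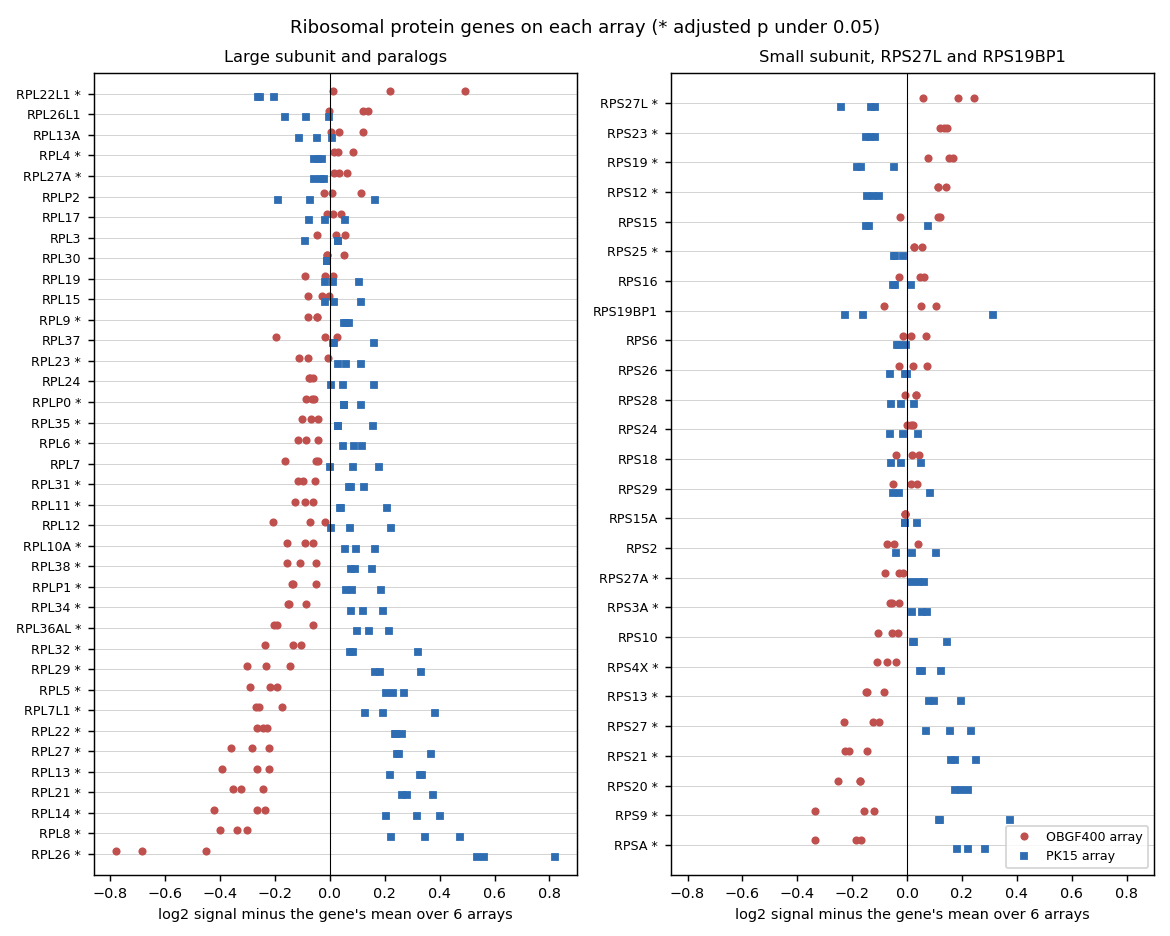
Log2 signal of each ribosomal protein gene on each array minus that gene's mean over the 6 arrays (x axis), with large-subunit genes on the left and small-subunit genes with RPS19BP1 on the right, ordered by difference. Circles are OBGF400 arrays, squares PK15 arrays, and asterisks mark the 40 called genes. Most large-subunit genes have their circles to the left of their squares, and the small-subunit genes fall to both sides.

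The OBGF400 arrays lay wholly below the PK15 arrays for 36 members and wholly above them for 9, with 19 overlapping. Over all genes, 40.1% lay wholly below and 26.8% wholly above. All 40 called members had arrays that did not overlap. Another 5 members did not overlap but were not called, among them RPL7 and RPL12. Among the 52 members above 14, OBGF400 replicate 1 was the lowest array of its line for 41 and PK15 replicate 2 the highest of its line for 39. The median deviations of these 2 arrays from their line were -0.04 and 0.05 for those members. They were -0.01 and 0.02 for other genes above 14. For all genes other than those at the lower limit in both lines they were 0.00 and 0.03. Without PK15 replicate 2 the median difference of the members was -0.11, with 33 lower and 8 higher. Without OBGF400 replicate 1 it was -0.13, with 27 lower and 7 higher. The share of all genes called was not counted without an array, so these counts show nothing particular to the members.

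The large subunit held most of the lower calls. Its 38 members split into 23 lower, 3 higher and 12 without a call, when 36.8% of all genes were lower and 23.9% higher, and their median difference was -0.18. The lowest was RPL26, a protein at the tunnel exit that also binds the p53 messenger RNA, at 4.54, 4.87 and 4.64 in OBGF400 and 5.86, 6.14 and 5.88 in PK15. Its arrays did not overlap, but the probe set is dim. The difference was -1.28 (SE 0.13, limma adjusted p = 0.000888), and -0.71 with 32 added to the linear signal.

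RPL8, which lies at the peptidyl transferase centre where peptide bonds form, had the largest difference among bright members. Its signals were 13.88, 13.97 and 13.94 in OBGF400 and 14.50, 14.75 and 14.62 in PK15. OBGF400 was lower on every array, by 1.62-fold (difference -0.69, SE 0.07, limma adjusted p = 0.00114). RPL14 stood at 14.28, 14.47 and 14.44 against 15.03, 15.11 and 14.91, a difference of -0.62 (adjusted p = 0.00198). RPL21 stood at 14.34, 14.45 and 14.37 against 14.96, 15.07 and 14.98, a difference of -0.61 (adjusted p = 0.00033). Both are structural proteins of the large subunit, and both were lower in all OBGF400 arrays.

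RPL13 was at 13.18, 13.35 and 13.30 against 13.79, 13.90 and 13.90, a difference of -0.59 (limma adjusted p = 0.000962). RPL27, mutated in some families with Diamond-Blackfan anaemia, was at 14.15, 14.23 and 14.29 against 14.76, 14.88 and 14.77, or 1.49-fold lower (adjusted p = 0.000735). The name of this probe set has the suffix for probes that several transcripts share. Another bright RPL27 probe set differed by -0.40, and a dim one was called higher (0.32). The mean of the RPL27 probe sets differed by -0.22. RPL22, an RNA-binding protein that ribosomes can do without, had the tightest values of this group. It was at 14.34, 14.38 and 14.36 against 14.87, 14.84 and 14.84, a difference of -0.49 (SE 0.01, adjusted p = 1.7e-05).

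The large-subunit genes that were higher in OBGF400 differed by little, apart from the paralog RPL22L1 described below. RPL4, a protein that narrows the exit tunnel, was at 15.57, 15.62 and 15.55 in OBGF400 and 15.48, 15.51 and 15.49 in PK15 (difference 0.09, limma adjusted p = 0.0228). RPL27A, another structural protein of the large subunit, was at 14.99, 15.04 and 15.01 against 14.94, 14.96 and 14.92 (difference 0.07, adjusted p = 0.0152). Neither set of arrays overlapped, yet the gaps were small. The call of RPL4 was lost without OBGF400 replicate 1 (0.09) or PK15 replicate 1 (0.08) or 3 (0.09), and that of RPL27A without OBGF400 replicate 3 (0.08). RPL4 differed by -0.02 after quantile normalization, and RPL27A by -0.01 after median centring, where RPL4 lost its call (0.007). Both calls were also lost with either filter on dim genes. RPL3, a neighbour of RPL8 at the peptidyl transferase centre, overlapped between the lines at 14.39 ± 0.05 and 14.37 ± 0.07 (SD, n = 3; adjusted p = 0.805).

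The stalk and the 5S particle of the large subunit can be followed by their named members. The stalk, which RPLP0 anchors and RPLP1 and RPLP2 complete, recruits the elongation factors. RPLP0 was at 15.29, 15.32 and 15.31 in OBGF400 and 15.43, 15.49 and 15.43 in PK15, a difference of -0.14 (limma adjusted p = 0.00405). RPLP1 was at 14.15, 14.24 and 14.16 against 14.48, 14.35 and 14.37, a difference of -0.22 (adjusted p = 0.0134). Both lay lower on all OBGF400 arrays, while RPLP2 overlapped at 13.72, 13.85 and 13.75 against 13.67, 13.91 and 13.55 (adjusted p = 0.693). The dim second probe sets of both genes ran the other way, with all OBGF400 arrays above: RPLP0 by 2.15 and RPLP1 by 0.31, the latter without a call. The RPLP0 call was lost with either filter on dim genes, and the RPLP1 call without OBGF400 replicate 1 (-0.20) or 3 (-0.20).

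RPL5 and RPL11 join 5S ribosomal RNA in a particle that can also bind MDM2, the inhibitor of p53. RPL5 was at 14.65, 14.72 and 14.75 against 15.17, 15.21 and 15.15, or 1.38-fold lower in OBGF400 (limma adjusted p = 0.000312). RPL11 was at 14.35, 14.42 and 14.39 against 14.52, 14.69 and 14.52, a difference of -0.19 (adjusted p = 0.039). Both were lower on every OBGF400 array. The RPL11 call was lost without any of the OBGF400 replicates (-0.17 to -0.21) and without PK15 replicate 1 (-0.22) or 3 (-0.22), and with genes above the 25th percentile only.

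The small subunit went both ways. Its 25 members split into 9 lower (36.0%), 5 higher (20.0%) and 11 without a call, close to the shares of all genes (36.8% and 23.9%), and their median difference was 0.00. With only the members above 14, the large subunit had 19 lower and 2 higher of 29, and the small subunit 9 lower and 4 higher of 23. The difference between the subunits was not tested, because the members were chosen with earlier results of these arrays known.

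RPS23, a protein of the decoding centre, had the clearest rise. It was at 14.95, 14.97 and 14.98 in OBGF400 and 14.72, 14.70 and 14.68 in PK15. All OBGF400 arrays lay above all PK15 arrays, and the difference was 0.27 (SE 0.01, limma adjusted p = 7.66e-05). RPS19, the gene most often mutated in Diamond-Blackfan anaemia, was at 15.10, 15.19 and 15.18 against 14.85, 14.97 and 14.84, or 1.20-fold higher (adjusted p = 0.00776). RPS12, a protein of the beak of the small subunit, was at 15.20, 15.23 and 15.20 against 14.94, 14.99 and 14.96, or 1.19-fold higher (adjusted p = 0.000208). The dim second probe set of RPS12 differed by -0.35 without a call, and the mean of both by -0.05. RPS19BP1, the partner of RPS19, was far dimmer and overlapped, at 9.20 ± 0.10 and 9.15 ± 0.29 (SD, n = 3; adjusted p = 0.928).

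RPSA, which was first described as a laminin receptor and sits near the exit of the messenger RNA channel, had the largest fall of the small subunit. It was at 14.19, 14.36 and 14.34 in OBGF400 and 14.71, 14.81 and 14.75 in PK15, or 1.38-fold lower (limma adjusted p = 0.00208). RPS4X differed by -0.15 (adjusted p = 0.0112), a call lost after quantile normalization (-0.11) and with either filter on dim genes. Its arrays did not overlap, at 14.72, 14.75 and 14.68 against 14.91, 14.84 and 14.84. RPS6, the substrate of the S6 kinases, was at 14.61, 14.70 and 14.64 against 14.60, 14.62 and 14.59, with overlapping arrays (adjusted p = 0.208). The 19 members that are known Diamond-Blackfan anaemia genes held 1 higher, 10 lower and 8 without a call, with 36.8% of all genes lower and 23.9% higher, and their median difference was -0.13. The share lower (52.6%) was near that of all members, 32 of 64. RPS19 was the higher one.

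Paralogs are further genes related to a ribosomal protein gene, often with a narrower pattern of use. Of 5 measured paralogs, RPL22L1 and RPS27L were higher, RPL7L1 and RPL36AL lower, and RPL26L1 was not called. Over all genes, 23.9% were higher and 36.8% lower. RPL22L1 was at 12.59, 13.07 and 12.79 in OBGF400 and 12.37, 12.31 and 12.32 in PK15, or 1.40-fold higher (limma adjusted p = 0.0314). Its OBGF400 arrays spread widely but stayed above the PK15 arrays. Its call was lost without OBGF400 replicate 3 (0.49) and without PK15 replicate 1 (0.50), 2 (0.47) or 3 (0.47). RPS27L, a p53 target gene, was at 12.95, 12.89 and 12.76 against 12.59, 12.57 and 12.46, or 1.25-fold higher (adjusted p = 0.0103). Its probe set has the suffix for probes that several transcripts share, so its signal may include other transcripts.

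The canonical partners of these 2 genes moved the other way. RPL22 was lower by 0.49, as given above. RPS27 was at 14.50, 14.60 and 14.63 in OBGF400 against 14.96, 14.88 and 14.80 in PK15, a difference of -0.30 (limma adjusted p = 0.00942). Its dimmer second probe set differed by -1.37, and the mean of both by -0.84. RPL7L1 and RPL7 both lay lower in OBGF400. RPL7L1 was at 12.43, 12.52 and 12.43 against 12.82, 13.08 and 12.89 (difference -0.47, adjusted p = 0.0055), and RPL7 differed by -0.18 without a call (adjusted p = 0.0634). RPL36AL differed by -0.31 (adjusted p = 0.00712), and its partner RPL36A was not analysed here. RPL26L1, at 12.29 ± 0.08 against 12.12 ± 0.08 (SD, n = 3), was not called (adjusted p = 0.0678), whereas the dim RPL26 probe set was lower.

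Within each array the log2 ratio of paralog to canonical gene was also compared in the 4 pairs with both genes measured, out of 9 pairs listed. The ratio of RPL22L1 to RPL22 was 0.98 higher in OBGF400 (SE 0.13), that of RPL26L1 to RPL26 was 1.45 higher (SE 0.11) and that of RPS27L to RPS27 was 0.63 higher (SE 0.09). Most of the RPL26L1 to RPL26 change comes from the dim RPL26 probe set, at -1.28, or -0.71 with 32 added to the linear signal. RPL26L1 itself differed by 0.17. The ratio of RPL7L1 to RPL7 differed by -0.29 (SE 0.13). In each of these pairs the OBGF400 and PK15 ratios did not overlap. The exact two-sided permutation test gave p = 0.1 for each, adjusted 0.1 over the 4 pairs, which is the smallest p that 3 arrays against 3 allow. These ratios do not depend on how an array is scaled as a whole.

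**Figure D2:**
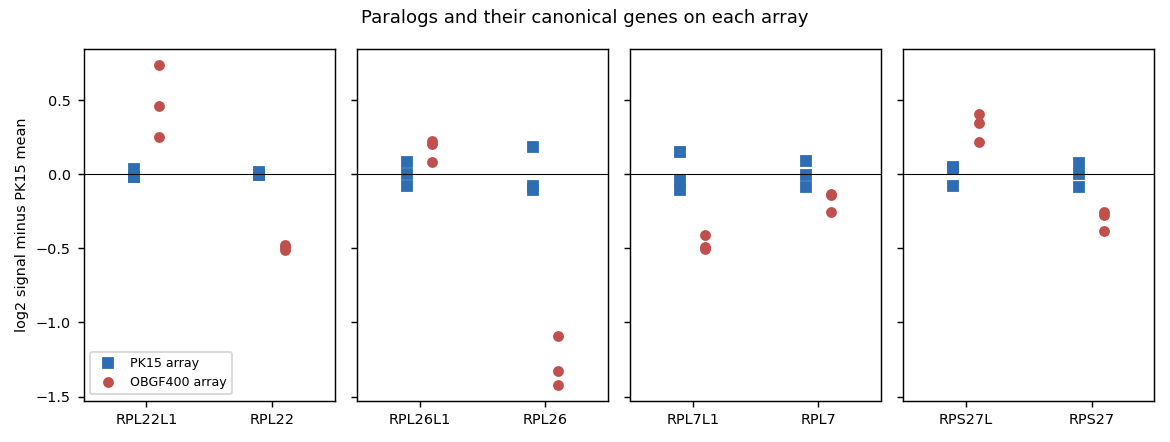
Log2 signal minus the PK15 mean (y axis) of the paralog and the canonical gene of each measured pair, with squares for PK15 arrays and circles for OBGF400 arrays. RPL22L1 and RPS27L have circles above 0 and their partners RPL22 and RPS27 below 0, while RPL7L1 and RPL7 are both below.

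Other probe sets of the same genes were read from the same RNA, though not each of them is a usable second measure. There were 32 of them, for 24 members, with a median signal of 7.55 against 14.92 for the first probe sets of these genes. At the lower limit in both lines were 4 of these probe sets, which could show little or no difference. The dimmest RPL12 probe set, above that limit, also had the same value, 2.41, on every array. Another 8 are the dim partners described below. Of the 32, 11 were lower, 5 higher and 16 not called, when 21.7% of all probe sets were lower and 20.2% higher (limma over 23999 probe sets, adjusted p under 0.05). Where both the first and another probe set of a gene were called, 7 had the same sign and 3 the opposite. The other probe sets differed more in size, with a median of 0.48 against 0.15. RPL38, which mouse work ties to the translation of Hox messenger RNAs, differed by -2.31 on its dimmer probe set (adjusted p = 3.55e-05) and by -0.21 on its bright one. RPLP0 differed by 2.15 on a dim probe set, against -0.14 on the bright one. RPL23, a large-subunit protein, differed by 1.76 and -1.32 on its dim probe sets and by -0.13 on the bright one. RPL38, RPL23, RPL12, RPL17, RPL32 and RPL6 are named here for their probe sets, after their values were seen.

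**Figure D3:**
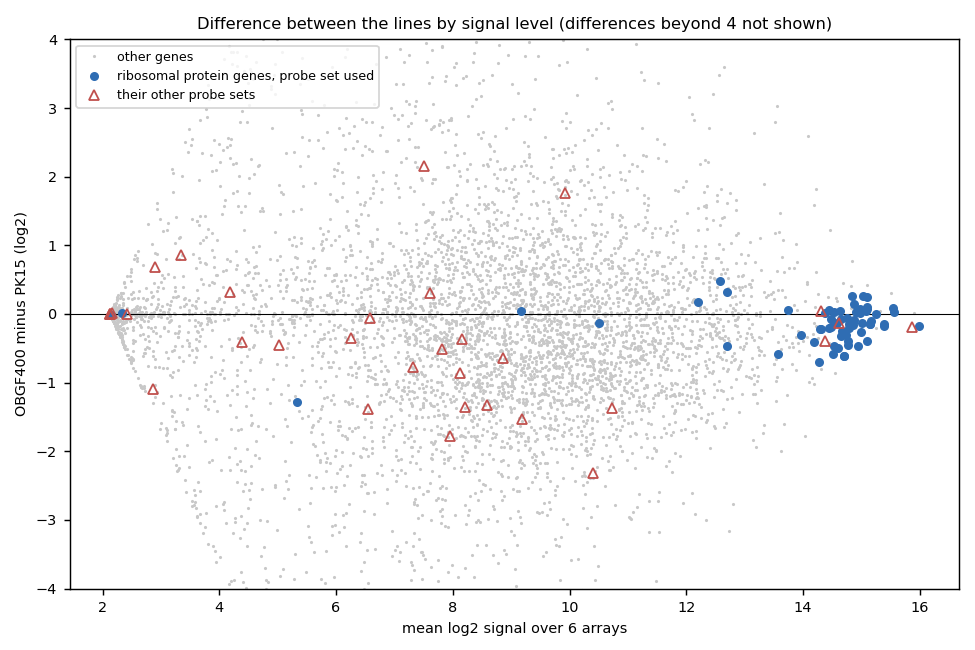
OBGF400 minus PK15 (y axis, log2) against the mean log2 signal over 6 arrays (x axis). Grey dots are other genes, blue circles the ribosomal protein genes on the probe set used, and red triangles their other probe sets. The blue circles gather above 14 and close to 0, and the red triangles run over the whole range of signals, 4 of them above 14 and several at or near 0, with the larger differences at low and middle signals.

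For 8 members the array carries a bright and a dim probe set of the same design cluster, which differ in the letter A or S of their names. All 8 dim probe sets had a lower mean in OBGF400, 4 of them by a call (RPL12, RPL17, RPL23 and RPL6), with a median difference of -0.71 against -0.14 for their bright partners. The dim RPL17 probe set, for example, was at 7.77, 7.51 and 7.81 in OBGF400 and 8.82, 8.52 and 8.32 in PK15, while the bright one overlapped. Over all 51 such clusters with a dim probe set above the lower limit, 62.7% of the dim probe sets had a lower mean, and 15.7% were called lower and 3.92% higher. In the 5 other clusters whose bright probe set was above 14, 4 dim probe sets had a lower mean and 2 were called lower, so the pattern is not shown to be particular to ribosomal protein genes. PK15 replicate 1 was the brightest PK15 array for all 8. Without it all 8 differences stayed negative, with a median of -0.50. The control probe sets for 28S ribosomal RNA, which has no poly-A tail, were also uneven, with means of 10.81, 10.70 and 10.72 in OBGF400 and 10.04, 9.90 and 9.09 in PK15. Its part in these values was not tested.

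**Figure D4:**
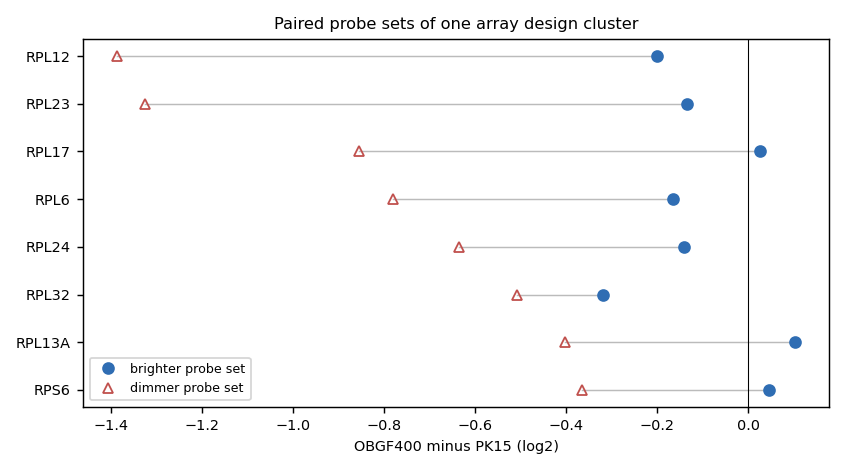
OBGF400 minus PK15 (x axis, log2) of the bright (filled circles) and dim (open triangles) probe set of the 8 members with both. Every triangle lies below 0 and to the left of its circle, which lies between -0.32 and 0.10.

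Genes that work with the ribosomal proteins were compared from lists. The 17 measured genes with TOP messenger RNAs or ribosome-bound products split into 4 higher, 5 lower and 8 without a call (median 0.00), against 23.9% higher and 36.8% lower over all genes. The elongation factor subunit EEF1D (-0.97, limma adjusted p = 0.00126), the poly-A binding protein PABPC1 (-0.92, adjusted p = 0.000522) and the initiation factor subunit EIF3E (-0.91, adjusted p = 0.000113) were lower. EIF3L, another subunit of that initiation factor, was higher (0.55), as were the splicing protein HNRNPA1 (0.43) and the elongation factor subunit EEF1G (0.29). Members of the same complexes thus lay on both sides. RACK1, a scaffold of the small subunit, was at 14.57 ± 0.04 against 14.55 ± 0.04 (SD, n = 3; adjusted p = 0.529), and FAU, which encodes a small-subunit protein fused to a ubiquitin-like one, was not called (0.19, adjusted p = 0.067).

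Of 45 measured ribosome biogenesis genes, 25 were lower and 9 higher, 11 had no call, and the median was -0.35. That is 55.6% lower and 20.0% higher, against 36.8% and 23.9% of all genes. All genes include 1047 at the lower limit in both lines, and this list has 0 there. BOP1 of this list nevertheless had the same value, 5.88, on every array. IMP4, part of the U3 particle that processes the small-subunit RNA, was at 8.11 ± 0.12 against 10.31 ± 0.12 (SD, n = 3; difference -2.20, limma adjusted p = 6.58e-05). POLR1D, a subunit shared by RNA polymerases I and III, differed by -1.93, and the nucleolar GTPase GNL3L by -1.80. In the other direction were RIOK1, a kinase of late small-subunit maturation (1.09), POLR1B, a core subunit of RNA polymerase I (1.08, but 0.00 on its second probe set), and RSL24D1, a large-subunit assembly factor (0.92). POLR1B and POLR1D are both needed to make ribosomal RNA and lay on opposite sides.

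Of 12 measured genes that control ribosomal protein supply, 5 were lower (41.7%, against 36.8% of all genes), 1 higher (8.3%, against 23.9%) and 6 not called. MYC, a transcription factor that drives ribosome production, was at 11.14 ± 0.19 against 12.82 ± 0.20 (SD, n = 3; difference -1.68, limma adjusted p = 0.000633). The translation repressor EIF4EBP2 was also lower (-1.70), but its call was lost with the mean of its probe sets (-0.040). The kinase RPS6KA1 was lower too (-3.39), with a near-constant 3.06 on all OBGF400 arrays, so that the size of its difference may be a lower bound, and the mTOR activator RHEB was higher (0.30). Without PK15 replicate 2, 3 genes of this list were higher, and without OBGF400 replicate 2, 2 were. The share of all genes called was not counted in those fits.

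Most directions of the members above rest on the scaling of the deposited values. The paralog ratios do not, and RPL26 was lower under each scaling tried (-0.46 on the hybridization controls, -2.13 on the poly-A controls). The hybridization controls, which are spiked into each sample before it goes on the array, differed by -0.82 between the lines. The dap and thr poly-A controls differed by 0.85, but the lys and phe poly-A controls by -0.20. Only dap and thr were used for poly-A control scaling. Scaling the arrays on the hybridization controls gave 58 members higher and 1 lower, with a median of 0.69, while all genes had 66.3% higher and 18.6% lower. Scaling on dap and thr gave 0 higher and 63 lower, with a median of -0.98, when all genes had 11.3% higher and 77.1% lower. With each array centred on its median probe set, 5 were higher and 38 lower. The share of all genes called was not counted for that centring, so these 2 counts show nothing particular to the members. These scalings shift every gene of an array alike: the median of all genes moved to 0.82, -0.86 and -0.08. The members' median stayed 0.13 below that of all genes as deposited. Among genes above the median signal, however, the median of all genes was -0.27 and that of the members -0.13.

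**Figure D5:**
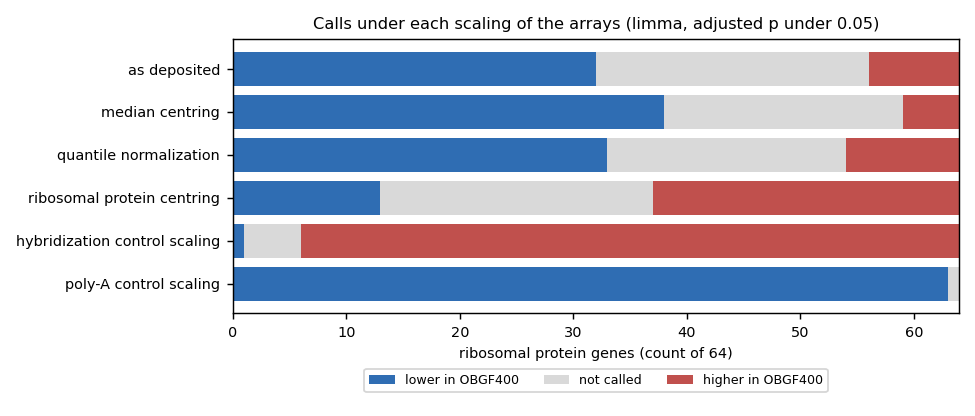
Count of the 64 ribosomal protein genes called lower (blue), not called (grey) or higher (red) in OBGF400 under each scaling of the arrays. As deposited, 32 were lower and 8 higher, against 1 and 58 with hybridization control scaling and 63 and 0 with poly-A control scaling. Poly-A control scaling used the dap and thr controls only.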

How the data were processed

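The authors deposited 1 log2 signal per probe set and array. Per the submitters' processing notes the package affy was used, with no version; how background, summary and scaling were handled is not stated in those sources, so "as deposited" is the scale used. Per the labels' protocols 8 µg of pooled total RNA was labelled. Array means ran from 5.41 to 5.42, and the number of arrays limits the precision. Of 24123 probe sets, 124 controls were left out; of 23999 tested, 10069 had 1 gene symbol, 198 several and 13732 none. All 64 members matched RefSeq (Sscrofa11.1) by Entrez number with the same symbol. Coordinates are not used, since no build is named for the probes.

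Over all 6765 genes, OBGF400 was set against PK15 in limma 3.58.1 (lmFit and eBayes, two-sided, R 4.3.3), with Benjamini-Hochberg adjustment; called means adjusted p under 0.05. The script was tested on simulated data. Differences are OBGF400 minus PK15. At the lower limit means within 0.1 of it on all arrays of a line. Named were up to 7 called members with the largest difference each way, the measured paralogs and partners, stalk, 5S particle, RPSA, RPS6, RPS19 and RPS19BP1, and up to 3 genes each way per list. Members and lists were chosen with earlier results of these data known.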

Additional observations from a re-analysis of the deposited data

How the results depend on the processing

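The count of ribosomal protein genes lower in OBGF400 (32) stayed within 23 to 38 under the alternatives other than 3 scalings, and that of genes higher (8) was 5 with either filter on dim genes or with median centring and 3 at an adjusted p under 0.01. Leaving out 1 array gave 6 to 8 higher, 25 to 33 lower and medians of -0.15 to -0.11. Centring on the members' median level gave 27 higher, 13 lower and a median of 0.10, with 51.9% of all genes higher and 32.2% lower: it subtracts a median of levels, which differs between the lines by more than the median of the differences. The median was -0.21 with median centring, -0.19 with the second probe sets, 0.69 on the hybridization controls and -0.98 on the poly-A controls. Apart from the deposited scale, the control scalings and the centring on the members' median level, no share of all genes called was counted. The counts under the other alternatives therefore show nothing particular to the members.

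For hybridization control scaling, poly-A control scaling and member centring in turn, the members higher were 58, 0 and 27 and lower 1, 63 and 13; TOP genes higher 14, 0 and 10 and lower 0, 15 and 3; biogenesis genes higher 26, 0 and 15; supply genes higher 7, 0 and 5. Biogenesis genes lower were 7 and 38, and supply genes lower 3 and 11, in the first 2. Median centring gave 8 TOP genes lower. Among genes above the median, 2 supply genes were higher and 3 lower. Leaving out 1 array gave 1 to 3 supply genes higher. With median centring, with that filter and without an array, no share of all genes called was counted. Those counts therefore show nothing particular to these lists.

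Hybridization control scaling reversed RPS27 (0.52), RPS4X (0.67), RPLP1 (0.61), RPL36AL (0.52), RPL7 (0.65), RPL7L1 (0.35), RPL22 (0.33), RPL27 (0.25), RPL13 (0.23), RPL21 (0.21), RPL8 (0.13), RPL14 (0.21), RPL11 (0.63), RPSA (0.36), RPL5 (0.36) and RPLP0 (0.68). Poly-A control scaling reversed RPS6 (-0.81), RPLP2 (-0.79), RPS19BP1 (-0.81), EIF3L (-0.31), HNRNPA1 (-0.42), EEF1G (-0.56), RPL22L1 (-0.37), RPL4 (-0.77), RPS27L (-0.53), RPS23 (-0.59), RPS19 (-0.59), RPS12 (-0.61), RPL27A (-0.78), RHEB (-0.56), RPL3 (-0.83) and RPL26L1 (-0.68). Member centring reversed RPLP0 (0.092), RPL11 (0.0439), RPLP1 (0.0169) and RPS4X (0.084). Averaging all probe sets of a gene gave 1.005 for RPLP0, 0.0445 for RPLP1 and -0.052 for RPS12, and the second probe set 2.15, 0.31 and -0.35. RPL4 was -0.0186 after quantile normalization and RPL27A -0.0053 after median centring. Of 852 values of named genes under the alternatives, 56 changed sign. Of these, 12 had no call either as deposited or under the alternative. The other 44 include values of genes not called as deposited, such as RPL3. A further 733 kept their sign and their side of the threshold, called or not, 46 lost a call and 17 gained one. Apart from shifts built into each scaling, the cause was not tested.

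The lines shared replicate numbers. The replicate block gave 8 members higher and 30 lower. For this block no share of all genes called was counted, so these counts show nothing particular to the members. With the block RPL22L1 (0.48), RPS27 (-0.30) and RPLP1 (-0.22) lost their calls and RPL26L1 (0.17) gained one. Same-numbered arrays did not deviate together (correlations of 0.03, -0.01 and 0.01), and not every array correlated best with its own number.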

Other observations

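Several ribosomal protein genes are in common use as reference genes for quantitative PCR in pigs. These genes were named after their values were seen. With OBGF400 given first, RPS18 stood at 14.98 ± 0.04 against 14.97 ± 0.06 (SD, n = 3; difference 0.02, limma adjusted p = 0.81). RPL13A was at 15.14 ± 0.06 against 15.04 ± 0.06 (difference 0.10, adjusted p = 0.128). RPL32 was at 14.49 ± 0.07 against 14.81 ± 0.14 and was lower in OBGF400 by 0.32 (adjusted p = 0.029). RPS29 had the smallest difference of all members, at 15.25 ± 0.04 against 15.26 ± 0.07 (adjusted p = 1). These values carry the scaling of the deposited table, under which ACTB, the gene of cytoplasmic actin, differed by 0.01. Control probe sets of reference genes were less even: actin differed by 0.62 at its 5′ end and 0.05 at its 3′ end, and GAPDH by -0.29 and -0.41. The part of this 5′ to 3′ difference, a sign of RNA quality, in the members' values was not tested.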
